A study of Mus musculus with 4 samples.

Results

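Of the 70961 autosomal H3K27ac peaks in the list of replicated peaks of mouse cortex, 1110 lay at the 3' ends of protein-coding genes and away from gene starts. A peak was counted here when its midpoint lay within 1 kb of the 3' end of a coding gene and the peak lay more than 2 kb from every transcription start site (TSS) of coding and long non-coding genes, with genes taken from GENCODE vM21 basic on mm10. The 1110 peaks, called 3' end peaks below, made up 1.56% of the autosomal peaks and 2.26% of the 49043 autosomal peaks more than 2 kb from every TSS, called distal. The other 47933 distal peaks were the comparison. The rule used position alone and no measured value. The tissue was the left cerebral cortex of female adult mice aged 2 months. They were B6CASTF1/J hybrids, whose parents are of the strains C57BL/6J and CAST/EiJ, with no treatment named in the labels. All 4 samples form 1 group, and they are 2 libraries each of pool I and pool J. Each pool was made of 4 biosamples, so values of single animals cannot be given. Pools are the only replicates, and no contrast between conditions exists. Whole cortex holds many cell types, and more cells of a type and more H3K27ac per cell cannot be told apart.

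H3K27ac is the acetylation of lysine 27 on the tail of histone H3. It is laid down by the acetyltransferases p300 and CBP and is known from active promoters and active enhancers. The 3' end of a gene is where its transcript is cleaved and polyadenylated, and the body of an active gene up to that point usually carries other marks, such as methylation of lysine 36 of the same histone. Acetylated regions can still lie there, because enhancers occur inside genes and just past them, and because a gene can have a start that an annotation lacks.

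The bases around the summit were richer in the dinucleotide CpG at 3' end peaks than at other distal peaks as a whole. For that reason, the sequences at the summits of 7 of the 3' end peaks are shown first. They were chosen by highest signal among peaks whose summit window overlaps no annotated exon. The rule also left out peaks on chromosomes set aside from printing. Each line gives the gene with the nearest 3' end, the position on mm10 (GRCm38) and the 201 bases of the plus strand centred on the summit, from the RefSeq copy of the reference genome, which is the C57BL/6J sequence. Capitals mark each CpG.
Dnajb12, chr10:59900009-59900209: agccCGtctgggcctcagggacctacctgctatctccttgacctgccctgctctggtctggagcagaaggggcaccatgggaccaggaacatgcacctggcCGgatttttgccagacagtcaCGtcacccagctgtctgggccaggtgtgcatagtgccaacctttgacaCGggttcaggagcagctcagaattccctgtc
Mrpl58, chr11:115413505-115413705: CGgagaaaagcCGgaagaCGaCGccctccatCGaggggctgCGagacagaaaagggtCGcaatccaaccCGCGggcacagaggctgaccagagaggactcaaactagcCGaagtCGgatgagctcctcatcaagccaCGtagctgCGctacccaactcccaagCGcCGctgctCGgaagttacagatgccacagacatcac
Lag3, chr6:124904002-124904202: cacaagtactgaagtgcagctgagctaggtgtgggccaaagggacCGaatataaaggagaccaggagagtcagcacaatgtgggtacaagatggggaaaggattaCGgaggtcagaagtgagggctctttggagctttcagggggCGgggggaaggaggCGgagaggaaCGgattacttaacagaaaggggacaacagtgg
Bad, chr19:6951915-6952115: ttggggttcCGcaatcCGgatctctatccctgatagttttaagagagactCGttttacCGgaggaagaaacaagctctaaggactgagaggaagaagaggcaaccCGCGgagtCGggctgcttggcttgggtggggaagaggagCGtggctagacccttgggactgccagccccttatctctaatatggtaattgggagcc
Lmod1, chr1:135368469-135368669: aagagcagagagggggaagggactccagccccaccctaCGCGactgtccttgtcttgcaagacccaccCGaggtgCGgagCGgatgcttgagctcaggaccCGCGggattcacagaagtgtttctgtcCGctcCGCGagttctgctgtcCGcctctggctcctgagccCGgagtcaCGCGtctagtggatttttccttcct
Hspb7, chr4:141425992-141426192: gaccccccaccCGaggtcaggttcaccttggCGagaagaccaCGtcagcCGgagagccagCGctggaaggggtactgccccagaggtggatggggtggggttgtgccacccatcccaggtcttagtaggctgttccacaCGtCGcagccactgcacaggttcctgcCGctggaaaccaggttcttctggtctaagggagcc
Trhr2, chr8:122355707-122355907: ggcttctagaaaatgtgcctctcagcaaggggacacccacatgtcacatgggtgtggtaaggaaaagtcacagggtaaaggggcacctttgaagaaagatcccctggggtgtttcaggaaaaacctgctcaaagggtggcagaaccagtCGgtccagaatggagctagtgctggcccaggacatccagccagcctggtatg
The number of CpG in these windows ran from 16 beside Mrpl58 and 14 beside Lmod1, through 8 beside Bad and beside Hspb7, 5 beside Lag3 and 4 beside Dnajb12, to 1 beside Trhr2.

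Over all 3' end peaks, the GC content within 100 bp of the summit had a median of 52.2% (quartiles 47.4% and 57.2%). Other distal peaks had a median of 48.3% (43.8% and 52.7%), and peaks within 2 kb of a TSS had 59.2%. At least 6 CpG, a limit chosen here, were present at 233 of the 3' end peaks, which is 21.0%. The share was 10.4% of other distal peaks and 66.7% of peaks within 2 kb of a TSS. Just beyond the 1 kb limit, in the next 250 bp on either side, 293 distal peaks had a median GC content of 53.2%. Of those, 21.5% had 6 or more CpG, so the higher CpG content was not particular to the 3' end peaks. The order of 3' end peaks and other distal peaks as a whole was the same in the list of each pool. In the pool I list 18.8% of the 3' end peaks and 9.97% of other distal peaks had as many CpG, and in the pool J list the shares were 24.4% and 11.9%. With 2 pools, no test across samples can be made of this or any later difference.

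The CpG content differed by what the midpoint lay in. It was highest in coding sequence, where 61.4% of 101 3' end peaks and 42.5% of 1069 other distal peaks had 6 or more CpG. In 3' UTRs the shares were close, at 17.3% of 469 and 16.6% of 644. In introns they were 20.3% of 148 and 8.55% of 30522, and outside coding genes 15.2% of 382 and 11.4% of 15256. The mix of locations also differed, with 63.7% of other distal peaks and 13.3% of 3' end peaks in introns. The 3' end peaks also lay closer to gene starts, with a median distance from the nearest TSS of 8751.5 bp against 23120 bp. Among peaks 2 to 5 kb from a TSS the shares with 6 or more CpG were 29.1% and 13.1%, and among peaks over 50 kb away they were 14.8% and 7.14%.

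**Figure D1:**
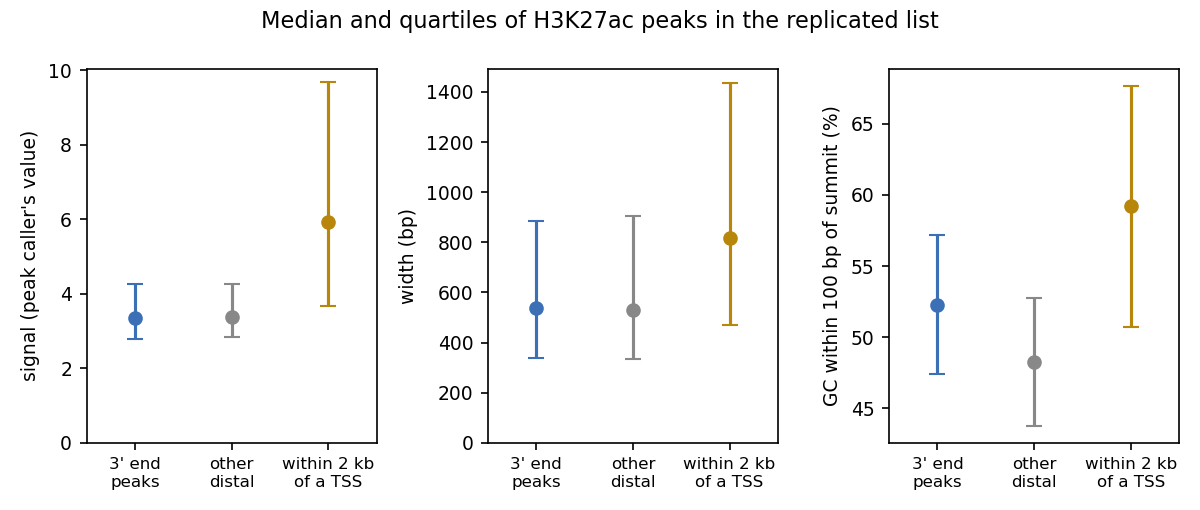
Medians (points) with quartiles (bars) of the signal, the width in bp and the GC content within 100 bp of the summit in %, for 1110 3' end peaks, 47933 other distal peaks and 21918 peaks within 2 kb of a TSS in the replicated list. The first pair of groups has near-equal medians of signal and width, and GC medians of 52.2% and 48.3%.

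In strength and width the 3' end peaks were much like other distal peaks. The signal of a peak is the enrichment value of the authors' peak caller, and it is compared within a list only. Its median was 3.36 in 3' end peaks (quartiles 2.79 and 4.27, range 1.82 to 16.9) and 3.37 in other distal peaks (2.84 and 4.27), while peaks within 2 kb of a TSS had 5.94. The median width was 538.5 bp (340 and 885.5 bp) against 529 bp (333 and 904 bp). Of the 3' end peaks, 463 had a −log10 q of 5 or more, which is 41.7%, as did 42.3% of other distal peaks and 53.4% of all autosomal peaks. In the highest decile of signal of all autosomal peaks were 25 of the 3' end peaks (2.25%) and 1.82% of other distal peaks. A width of 2 kb or more was found in 49 (4.41%) and 5.66%. Peaks often had near neighbours, so a called peak need not stand alone. Another peak lay within 5 kb of 81.8% of 3' end peaks and 78.1% of other distal peaks. The median gap to the nearest peak was 355 bp and 433 bp. In the outermost 250 bp of the window on either side, 259 peaks had a median signal of 3.34, and in the next 250 bp beyond it, 293 distal peaks had 3.32.

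CpG content and signal went together in both sets. The 3' end peaks with 6 or more CpG had a median signal of 3.87, and the remaining 877 had 3.23. For other distal peaks these medians were 3.76 and 3.32. Of the 25 3' end peaks in the highest decile, 19 had 6 or more CpG (76.0%), against 40.7% of the 872 other distal peaks in it. Repeats covered little of the summit windows, with a median of 1.99% of bases soft-masked in 3' end peaks and 5.97% in other distal peaks.

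The density of peaks was counted as distal peak midpoints per Mb of sequence that lay more than 2 kb from every TSS. The windows around 3' ends held 32.3 Mb of such sequence and 34.3 peaks per Mb. The rest of the autosomes held 21.6 per Mb, so the windows had 1.59 times as many. Against the remaining sequence inside coding genes, which held 36.4 per Mb, the direction turned, and the windows had 0.944 times as many. Sequence within 5 kb of a 3' end but outside the windows held 31.3 per Mb. In pool I the ratio to the rest was 1.51 and the ratio to sequence inside genes 0.895, and in pool J they were 1.61 and 0.963. Over the whole window, which also holds sequence past the gene, peaks were thus no denser than in the rest of coding genes, in any of these 3 lists. The part inside the gene held 38.3 per Mb in the replicated list, 33.5 in pool I and 24.0 in pool J. The rest of coding genes held 36.4, 35.4 and 22.0, so this part was lower in pool I only. The part past the end held 30.4, 30.0 and 18.4, against 11.6, 11.4 and 7.21 in other sequence outside coding genes.

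**Figure D2:**
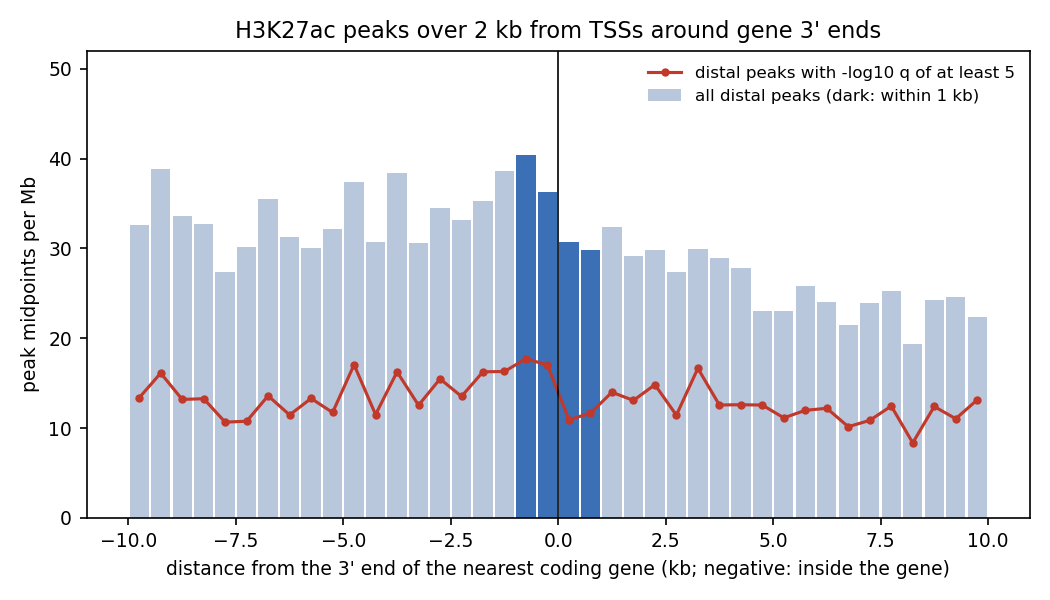
Distal peak midpoints per Mb (vertical axis) in bins of 500 bp by distance in kb from the 3' end of the nearest coding gene (horizontal axis, negative inside the gene), for all distal peaks (bars, dark within 1 kb) and for those with a −log10 q of at least 5 (line). The bars step from 36.3 per Mb just inside the gene to 30.7 just past its end.

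The density was lower just past the 3' end than just inside it. It was 40.4 peaks per Mb from 1000 to 500 bp inside the gene and 36.3 in the last 500 bp, then 30.7 in the first 500 bp past the end and 29.8 in the next 500 bp. Peaks with a −log10 q of at least 5 also had lower values just past the end, with 17.7, 17.0, 10.9 and 11.7 per Mb in the same bins. From 1000 to 5000 bp past the end, their bins held between 11.4 and 16.6 per Mb. For all distal peaks, the bins from 5 to 10 kb past the end held between 19.3 and 25.8 peaks per Mb. Those from 10 to 5 kb inside the gene held between 27.3 and 38.9. Taking each side of the end as a whole, the replicated list had 38.3 per Mb inside and 30.4 past the end, the pool I list 33.5 and 30.0, and the pool J list 24.0 and 18.4. The direction was thus the same in both pools, and the gap was narrowest in pool I.

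**Figure D3:**
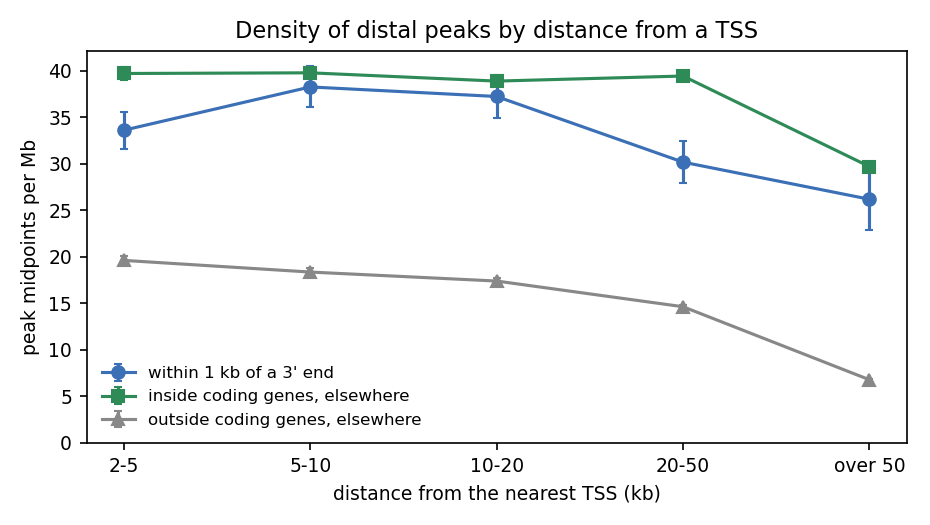
Distal peak midpoints per Mb (vertical axis) by distance from the nearest TSS in kb (horizontal axis). Shown are sequence within 1 kb of a 3' end, other sequence inside coding genes and other sequence outside them. Bars are the square root of the count divided by the Mb of sequence. The 3' end windows lie between the other lines in each of the 5 classes.

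The windows stood between the other classes of sequence at every distance from a TSS. At 2 to 5 kb from a TSS the windows held 33.6 peaks per Mb, other sequence inside coding genes 39.7 and sequence outside them 19.6. At 5 to 10 kb the values were 38.2, 39.8 and 18.4, and at 10 to 20 kb they were 37.2, 38.9 and 17.4. At 20 to 50 kb they were 30.2, 39.4 and 14.6. Over 50 kb from a TSS they were 26.2, 29.7 and 6.78, the first from 63 peaks.

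By the annotation of the midpoint, 469 of the 3' end peaks lay in a 3' UTR (42.3%), 101 in coding sequence (9.10%), 148 in an intron (13.3%), 10 in another exon and 382 outside coding genes (34.4%). Measured from the nearest 3' end, 616 midpoints were inside the gene (55.5%) and 494 past its end. Median signals were 3.37 for the 616 and 3.27 for the 494, and median widths 571.5 and 496.5 bp. The median signal by location ran from 2.89 in the 10 peaks of other exons to 3.57 in coding sequence.

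The 3' end peaks belonged to 1011 of the 18911 coding genes with a window that could hold one, which is 5.35%. A single 3' end peak was found at 813 genes, 2 at 184 and 3 or more at 14. Since 111 of the peaks lay within 1 kb of the 3' ends of more than 1 gene, genes do not map one to one to peaks.

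The share of genes with a 3' end peak was higher where the 3' end faces that of the next coding gene than where the next gene lies on the same strand. Such convergent genes had a 3' end peak in 6.50% of 7369 cases, tandem genes in 3.96% of 8832, and genes whose end lies inside another coding gene in 6.76% of 2694. Per Mb of eligible window, counting a peak for each gene it lay near, the values were 43.5, 26.2 and 46.4. The pool I list gave 6.49% of convergent and 3.62% of tandem genes, and the pool J list gave 4.17% and 2.58%. Among genes with a promoter peak the replicated list gave 8.68% of 4645 convergent and 6.01% of 4845 tandem genes. The rule itself removes sequence near the start of the next gene of a tandem pair, and of the 418 tandem genes with a gap of 2 kb or less only 3 had a 3' end peak. With gaps of 2 to 10 kb the shares were 6.66% of convergent and 4.98% of tandem genes, with 10 to 50 kb 5.18% and 3.83%, and over 50 kb 3.81% and 3.65%. The share was highest, at 10.4%, in the 1640 convergent genes with gaps of 2 kb or less, where 1 peak can count for both genes. Signal did not follow this order, with a median of 3.37 in convergent and in tandem peaks and 3.17 in those inside another gene.

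Genes with a 3' end peak mostly had a promoter peak too. Of the 1011 genes, 844 had a peak within 1 kb of one of their TSSs (83.5%, exact binomial 95% interval 81.0% to 85.7%, which treats genes as independent), against 60.1% of the 18911 eligible genes. Seen from the promoter, 7.42% of 11369 genes with a promoter peak and 2.21% of 7542 without had a 3' end peak. The pool I list gave 7.13% and 2.28%, and the pool J list 4.81% and 1.78%. The share was 4.75% in the lowest decile of promoter signal and 10.6%, 9.85% and 9.51% in the highest 3 deciles. The gap was present in short and in long genes. Among genes under 5 kb the shares with and without a promoter peak were 8.03% and 1.70%, and among genes over 100 kb they were 6.22% and 2.61%.

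**Figure D4:**
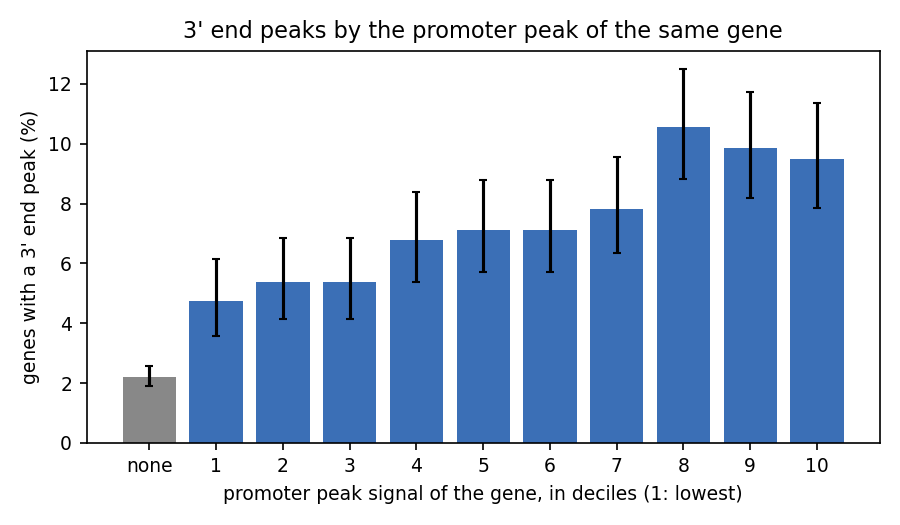
Share of eligible coding genes with a 3' end peak in % (vertical axis) for genes with no promoter peak (grey) and for genes in deciles of promoter peak signal (blue, 1 the lowest), with exact binomial 95% intervals. The share is 2.21% with no promoter peak and 10.6% in decile 8, the highest bar.

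The signals of the promoter and of the 3' end peak showed no relation in rank. Across the 844 genes with both, Spearman's rho of the 2 signals was -0.02, given as a description, since genes share the library. The 3' end peak had the higher signal in 62 genes (7.35%).

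The strongest 3' end peak lay at the end of Zfp771, a zinc finger protein gene (chr7:127253463-127255016, midpoint in coding sequence). Its signal was 16.9 in the replicated list, 21.3 in pool I and 12.3 in pool J, and it had 31 CpG around the summit. The Zfp771 promoter peak had 13.7. Next came Dnajb12, an endoplasmic reticulum co-chaperone of the Hsp40 family (chr10:59896067-59901135), with a peak of 5069 bp. Its signal was 14.6, 18.9 in pool I and 13.7 in pool J. The midpoint of this peak lay in the 3' UTR, but its summit lay outside every annotated exon. At Mrpl58, a peptidyl-tRNA hydrolase of the mitochondrial ribosome (chr11:115412224-115414142), the midpoint lay 509 bp past the end, and the signal was 14.5, 19.6 in pool I and 9.69 in pool J. All 12 of the strongest were in the lists of both pools.

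Several of the strongest peaks stood past the end of the gene. The peak beside Tex2 (chr11:106500858-106502346) had a signal of 14.4, 16.6 in pool I and 12.2 in pool J. It lies within 1 kb of the small nucleolar RNA gene Snord104 and of the RefSeq gene Gm36220, whose starts the rule does not use. Across the facing ends of Shf, an SH2 domain adaptor, and Duox1, a hydrogen peroxide-producing oxidase (chr2:122347942-122349591), which are 920 bp apart, a peak of signal 14.2 had 13.7 in pool I and 11.2 in pool J. Beside Lag3, an immune checkpoint receptor of lymphocytes, the peak (chr6:124903298-124905085) had 14.1, 17.0 in pool I and 10.8 in pool J, and Lag3 had no promoter peak. The peak beside Slc23a3, of the ascorbate transporter family (chr1:75124227-75125697), lay in an intron of the DNA repair gene Nhej1 and near Nhej1 starts of the full annotation, with 12.9, 15.3 in pool I and 11.0 in pool J. The peak beside Lmod1, which encodes an actin-binding protein of smooth muscle (chr1:135367993-135369701), had 12.7, 14.3 in pool I and 10.9 in pool J.

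The remaining peaks of the 12 strongest were at Prkd2, Bad, Tead2 and Gm5737. At Prkd2, a protein kinase D (chr7:16869698-16870363), a peak of 666 bp in the 3' UTR had a signal of 13.6, 17.7 in pool I and 6.67 in pool J. At Bad, a pro-apoptotic member of the Bcl-2 family whose end faces that of the phospholipase C gene Plcb3 426 bp away (chr19:6950381-6953403), the signal was 12.9, 15.9 in pool I and 9.96 in pool J. At Tead2, a transcription factor of the Hippo pathway (chr7:45232346-45235219), it was 12.7, 14.9 in pool I and 10.7 in pool J. At the predicted gene Gm5737 (chr7:120829939-120831637) it was 12.3, 14.5 in pool I and 9.96 in pool J. Of these 12 genes, Lag3, Slc23a3, Lmod1, Tead2 and Gm5737 had no promoter peak.

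Some 3' end peaks lay near starts that the rule does not use. These are starts of transcripts outside the basic set, of other gene types and of RefSeq. One lay within 1 kb of 121 of the 3' end peaks (10.9%) and of 10.8% of other distal peaks, and of 8 of the 20 strongest 3' end peaks. In the highest decile of signal the shares were 44.0% of 25 and 32.8% of 872. At Prkd2, Bad and Tead2 such a start belonged to the gene itself, and at Dnajb12 to the RefSeq gene model Gm46226. Xpc, Cacna1a and Gapdh, named below, also had such a start near their 3' end peak. Whether these starts are used in this tissue was not tested.

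The widest 3' end peaks were not the strongest ones, Dnajb12 apart. The widest, with 6965 bp and a signal of 8.99, had its midpoint 725 bp past the end of Diaph1, a formin that assembles actin (chromosome 18). That end faces the end of the gamma protocadherin Pcdhga1 across 1728 bp, a gap shorter than the peak. Pcdh1, a cell adhesion protein of the protocadherin family, had 4537 bp and 9.66. Lzts1, a leucine zipper protein of the synapse, had 4343 bp and 6.56 (chr8:69129792-69134134). Dag1, the dystroglycan gene, had 3892 bp and 6.43 (chr9:108203299-108207190). Xpc, a DNA damage sensor of nucleotide excision repair, had 3691 bp and 6.18, in the 842 bp between its end and that of Tmem43 and beyond (chr6:91487308-91490998). In pool J the peaks overlapping those of Lzts1 and Dag1 had only 454 and 1294 bp, against 4377 and 4565 bp in pool I.

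The pools differed in how many 3' end peaks they held. Of the 1110 peaks, 508 overlapped a peak of both pool lists (45.8%), against 46.2% of other distal peaks and 55.9% of all autosomal peaks. Another 349 overlapped a peak of pool I only, 52 of pool J only and 201 of neither. Among the 508, the signal of pool I was higher in 454. This is a difference between lists and not a measured change, since the normalization of the signal and the depth of each pool are unknown. Spearman's rho between the pools was 0.60 and Pearson's r of log2 signal 0.68 over the 508 peaks, and 0.62 and 0.68 over 22159 other distal peaks, as a description across peaks of the same libraries.

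**Figure D5:**
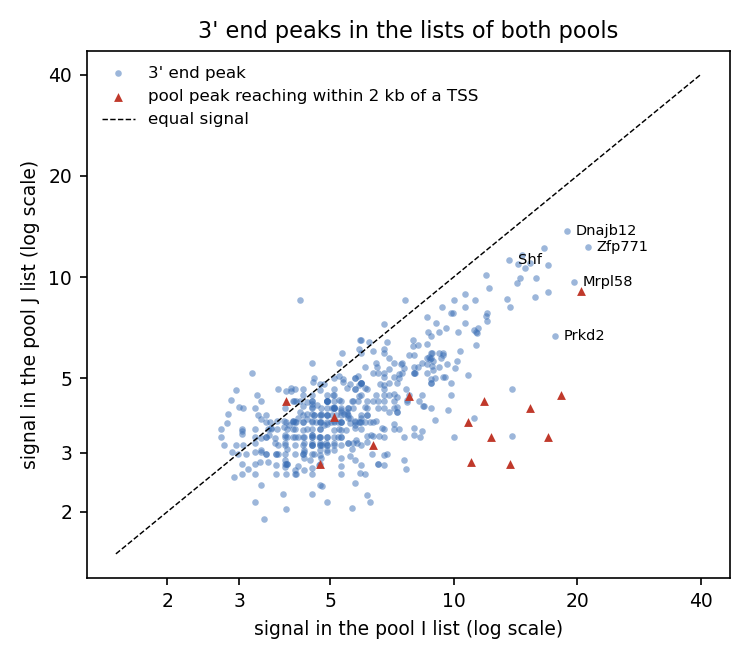
Signal in the pool I list (horizontal axis, log scale) against the pool J list (vertical axis, log scale) of the 508 3' end peaks found in both, with the line of equal signal dashed. In 454 of them pool I is higher, and triangles mark 14 whose peak in a pool reaches within 2 kb of a TSS.

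A pool's value is that of the strongest overlapping peak in its list, which can be wider than the 3' end peak. In pool I, 23 of 857 matched peaks came within 2 kb of a TSS, and in pool J 2 of 560. The peak past the end of Arc, the activity-regulated cytoskeleton gene (chr15:74668751-74669061), shows this. It had a signal of 3.27 in the replicated list and 3.34 in pool J, but 12.4 in pool I, where 1 peak of 4169 bp covered the gene up to 10 bp from a TSS. The peak beside the clock output gene Dbp (chr7:45710818-45711421) had 2.57 in the replicated list, no peak in pool J and 20.0 in pool I, in a peak of 6833 bp that holds a TSS. These pool I values are not values of the 3' ends.

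Applied to the list of each pool alone, the rule found 1025 peaks in pool I and 685 in pool J. Of the 1025, 559 overlapped no pool J peak, and of the 685, 71 overlapped no pool I peak. The strongest of pool I alone lay at the calcium channel gene Cacna1a (6.55), the chromatin remodelling subunit Smarcc2 (6.55), the retinal transcription factor gene Nrl (6.54) and the vitamin D receptor gene Vdr (6.34). The strongest of pool J alone lay at B430306N03Rik (4.80), the scaffold gene Ahnak (4.45), Zfand3 (4.08) and the splicing factor gene Rbm22 (4.02). All of these were below the 12 strongest peaks in either pool.

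Genes known from cortical cells were among those with a 3' end peak. Over 16 lists of cell type markers and gene functions, 35 of 318 eligible genes had one (11.0%). The share was 5.35% of all eligible genes and 7.42% of those with a promoter peak. In the highest 3 deciles of promoter signal it was 10.6%, 9.85% and 9.51%. The lists were written with earlier results of these data known, so the shares are a description. At a −log10 q of at least 5, 13 of the 318 listed genes had one, against 451 of the 18911 eligible genes. Counts per list were 5 or fewer. Where no pool J value is given below for a peak with a pool I value, the pool J list had no peak there.

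Among excitatory neuron genes, 4 of 24 had a 3' end peak. They were Mef2c, an activity-responsive transcription factor (4.12 in the replicated list, 4.83 in pool I, 3.62 in pool J), Fezf2, which specifies subcerebral projection neurons (3.58, 5.93 and 2.75), Chrm1, a muscarinic receptor (3.57, 4.52 and 3.15), and Neurod2. Of the inhibitory neuron genes, 1 of 20 had one, the Kv3 potassium channel gene Kcnc1 (4.67, 6.09 and 2.60). In the channel list, Cacna1a (4.86) joined it, for 2 of 21. Cacna1a had 6.55 in pool I and no peak in pool J.

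In glia the astrocyte list had the most, 5 of 21. Gfap, the intermediate filament of astrocytes, had a 3' UTR peak (4.21, 5.58 in pool I and 3.67 in pool J) and no promoter peak. Glul, glutamine synthetase, had 3.87, 4.50 in pool I and 3.38 in pool J. S100b, a calcium-binding protein whose peak also lay within 1 kb of the 3' end of Dip2a, had 3.61, 4.50 in pool I and no peak in pool J. Atp1b2 and Apoe were the other two. The oligodendrocyte list had 4 of 22. The transcription factor Sox8 led it, with 6.45, 7.44 in pool I and 5.50 in pool J, followed by Olig2 with 3.51 and 5.10 in pool I, Bcan with 2.57, and Cnp. Of the microglia genes, the fractalkine receptor Cx3cr1 had one (2.37) at the end of its gene record. That record spans 168264 bp and ends inside another coding gene, with the peak in an intron. Endothelial and mural cells gave 1 of 18, the VEGF receptor Kdr (2.27, 2.87 in pool I). Cx3cr1 and Bcan had a peak in neither pool list.

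Synaptic genes gave 3 of 18 presynaptic and 3 of 16 postsynaptic members. The scaffold gene Dlgap3 was the strongest, with 6.56, 8.80 in pool I and 4.82 in pool J. Homer2, also a scaffold, had 4.39 and 5.20 in pool I, and the adhesion protein Nlgn1 had 3.60, 4.72 in pool I and 2.94 in pool J. On the presynaptic side, the SNARE gene Snap25 had 4.27, 5.12 in pool I and 4.08 in pool J. Vamp2, its partner on vesicles, had 3.51 and 4.71 in pool I, where the overlapping peak came within 1681 bp of a TSS. Rab3a, a vesicle GTPase, shared a peak of 2.90, with 3.58 in pool I, with the end of Mpv17l2, whose end is nearer.

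The cytoskeleton list gave 4 of 24, led by Stmn1, the microtubule-destabilizing protein stathmin, with 7.54, 11.2 in pool I and 3.82 in pool J. Mapt, which encodes tau, had 3.36 and Ank2, an ankyrin, 2.94 with 4.09 in pool I, and Tubb3 was the fourth. Mapt had no peak in either pool list. Activity-regulated genes gave 2 of 26, Arc and the neuropeptide precursor Vgf (3.47, 4.50 in pool I), and the clock 1 of 18, Dbp. Calcium signalling gave 1 of 23, the plasma membrane calcium pump Atp2b2 (3.96, 4.29 in pool I and 3.70 in pool J). Energy metabolism gave 3 of 26, Gapdh (3.45, 4.44 in pool I), Eno1 (2.60, 3.93 in pool I) and Cox5a (2.27, 2.93 in pool I), and housekeeping 1 of 17, Gapdh again. The Gapdh peak also lay within 1 kb of the 3' end of Iffo1. Genes of other tissues gave 0 of 20, but only 4 of those 20 had a promoter peak. Promoter peaks were present at 24 of 24 eligible excitatory neuron genes, 13 of 20 inhibitory ones and 19 of 21 astrocyte ones.

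Of 9 short motifs, most had close shares in both sets. Each was searched on both strands in the 201 bases around the summit. CCCTC, a stretch found in many CTCF sites, was in 52.8% of 3' end peaks (exact binomial 95% interval 49.8% to 55.8%) and 44.7% of other distal peaks, and the former windows also hold more G and C. The E-box CAGCTG was in 16.0% and 13.5%, and CAGATG in 16.6% and 17.3%. AP-1 letters TGANTCA were in 61 of 1110 and 2874 of 47933, a MEF2 consensus in 3.24% and 3.25%, and the polyadenylation signal AATAAA in 14.5% and 15.7%. The CRE letters TGACGTCA were in 0 of the 1110 and 0.15% of other distal peaks, and an RFX consensus in 0 and 0.0542%. The EGR letters GCGGGGGCG were in 1 3' end peak. A match is a description of letters and not a bound site.

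The labelled tissue was checked by promoter peaks at marker genes. They were found at 8 of 8 genes of cortical excitatory neurons, 3 of 4 of interneurons, 3 of 4 of astrocytes, 3 of 3 autosomal ones of oligodendrocytes, 3 of 4 of microglia and 4 of 4 of endothelium. None was found at 6 genes of hindbrain and cerebellum or at 4 of liver. The markers without a promoter peak were Lhx6, Gfap and Tmem119.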

How the data were processed

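H3K27ac ChIP-seq of 4 libraries from 2 pools was used as 4 peak lists: replicated, pseudoreplicated from both pools, pool I alone and pool J alone. Per the labels, coordinates are on mm10. The authors deposited for each peak a signal value, a −log10 p, a −log10 q, a display score and a summit position. Not given in the sources used here are the peak caller, the aligner, the filters and the normalization of the signal. Depth is unknown, so no interval for counting error of a signal is given, and intervals of shares cover counting only. Signals were compared within a list.

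Genes came from GENCODE vM21 basic, and a 3' end was the end of the gene record. For 1593 of 20807 autosomal coding genes, that end was the end of no basic transcript. Sequence came from the same assembly, whose chromosome lengths hold every peak. Scripts used Python 3.11.15, numpy 2.4.6, pandas 2.3.3 and scipy 1.17.1. The rule and the density were tested on simulated peaks of 1 bp on 1 chromosome. Such peaks cannot show an effect of peak width on the density. A real peak had to lie as a whole away from every TSS, while the Mb counted every eligible base. Lists were matched by an overlap of at least 1 bp, and a pool's signal is that of the strongest overlapping peak. A promoter peak overlapped 1000 bp on either side of a TSS of the gene.

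The members, gene lists and naming rule were chosen with earlier results of these data known. Named are the 12 strongest and 6 widest members, the 5 strongest past the end, the 5 strongest between convergent genes, the 4 strongest of each pool alone, and up to 3 genes per list. Other listed genes are named where they complete a count of 5 or fewer. The count of the microglia list is not reported here. The rule for sequences took up to 8 members of highest signal whose summit windows overlapped no annotated exon. Chromosomes set aside from printing were left out, and 7 sequences are shown. No test was run, since there is 1 group of 2 pools.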

Additional observations from a re-analysis of the deposited data

Results flagged for a closer look

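The X chromosome lies outside the rule. It held 11 peaks that met the distances to 3' ends and TSSs, of 473 distal peaks there (2.33%, against 2.26% on the autosomes). Their median signal was 3.97 and the highest, 8.06, lay at Tspyl2.

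Some 3' end peaks of a single pool overlapped no peak of the replicated list. There were 266 in pool I, with a median signal of 3.48 against 4.54 for those that did overlap one, and 23 in pool J, with 3.06 against 3.73. One of the 266, at Smarcc2, had a signal of 6.55 in pool I.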

How the results depend on the processing

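The one result that reversed was the density at 3' ends, 1.59 times that of other distal sequence but 0.944 times that of sequence inside coding genes, and 1.10 times that of sequence within 5 kb of a 3' end. A window of 500 bp gave 552 peaks and 553 genes, and one of 2 kb gave 2146 peaks, 1730 genes and 43.8% between convergent genes. Over 5 kb from a TSS the convergent share was 51.1%. With the ends of all basic transcripts the density ratio was 1.70 and the promoter share 86.0%. At a −log10 q of at least 5 there were 463 peaks at 451 genes, with a median signal of 4.47, a width of 900.0 bp, 60.3% inside the gene, a promoter share of 78.9%, 82.9% in both pools, a GC content of 54.2% and 13 listed genes. At that cut of q, promoter peaks too had to reach it, which the main promoter share did not require. An overlap of 50% of both peaks left 29.3% in both pools. A window of 50 bp on either side of the summit gave a GC content of 53.5%, and with it each motif that moved was found less often. Without pool I or without pool J, there were 685 to 1025 peaks at 662 to 980 genes, with a median signal of 3.71 to 4.23, a width of 534 to 701 bp and a promoter share of 78.1% to 82.3%. The lower numbers of peaks and genes are those without pool I. No paired analysis was possible because there is 1 group. The other 78 recalculated values, apart from those of the motifs, moved by less than the interval of the value or, for counts, by less than 1.5 times. The depth is unknown, and whether it differs between the pools was not tested.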
